A study of Homo sapiens with 8 samples.

Results

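The glycolysis and hypoxia response set comprised 37 genes, chosen as listed symbols of glycolytic enzymes and HIF-linked genes among the 59385 gene symbols of the count table. All 37 passed the filter on low counts, which kept 16228 genes for testing, EGLN3 and CA9 having at least 10 counts in polysome libraries alone (3 each). The set held 4 glucose and lactate transporters, 9 enzymes of the preparatory phase of glycolysis, and 8 enzymes of the payoff phase including the lactate dehydrogenases. It also held 3 regulators of glycolytic flux, 6 HIF subunits and oxygen-sensing factors, and 7 HIF target genes. Expression was measured in IHCF, a line of immortalized human cardiac fibroblasts, the cells that make the matrix of the heart. The groups were EIF4G2 knockdown polysome, EIF4G2 knockdown total, scramble polysome and scramble total, with 2 libraries in each. Knockdown cells carried a lentiviral short hairpin RNA against EIF4G2 (also called DAP5, a translation initiation factor related to EIF4G1), and scramble cells a lentiviral hairpin with no target. Every group, the scramble cells included, had at least 6 h without serum and then 24 h of TGF-beta, so no untreated cells are compared here. The labels name no second hairpin and no rescue, so what the hairpin does beyond lowering EIF4G2 cannot be told apart from that loss. The labels call the libraries biological replicates without naming separate cultures, and the p-values therefore reflect library-to-library spread that may be technical.

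Glycolysis turns glucose into pyruvate: the preparatory phase spends ATP to make triose phosphates, and the payoff phase recovers ATP and NADH. Hypoxia-inducible factors (HIFs) pair an oxygen-sensitive alpha subunit (HIF1A or EPAS1) with ARNT and raise transcription of most glycolytic enzymes, glucose uptake and lactate export. In the presence of oxygen the EGLN prolyl hydroxylases mark the alpha subunit and VHL targets it for destruction, so HIF activity is set largely at the protein level, which RNA counts do not measure.

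The label checks concern every comparison. EIF4G2 stood at 244 and 335 CPM (counts scaled to a common library size, with edgeR's trimmed mean of M-values, TMM) in knockdown polysome libraries, against 875 and 877 CPM in scramble polysome libraries. In total RNA it stood at 293 and 327 CPM in knockdown cells, against 794 and 785 CPM in scramble cells. The log2 fold change was −1.60 ± 0.18 in polysomal RNA (SE, edgeR adjusted p = 0.0276, 0.102 to 0.224 without any 1 of 5 of the libraries) and −1.35 ± 0.18 in total RNA (edgeR adjusted p = 0.0504, DESeq2 adjusted p = 4.05e-10). Libraries held 18043714 to 24590030 counts, of which the 37 genes together made up 2.83 to 3.57% on the polysome side and 1.91 to 2.06% in total RNA. The mitochondrial genome gave 3.88 to 4.21% of counts in total RNA and 14.5 to 17.5% in polysomal RNA, except in scramble polysome replicate 1 (7.12%). Among 10 fibroblast markers VIM and COL1A1 were abundant, while DCN was at 0 to 8 counts and POSTN and PDGFRA at or below 124 and 53 counts per library. KRT8 and KRT18, keratins of simple epithelia, reached 1642 and 1551 CPM, while the other 5 epithelial and kidney line markers (EPCAM, CDH1, KRT19, PAX2 and CLDN4) stayed at or below 8.56 CPM and CDH1 and PAX2 at or below 5 and 2 counts. The list summed to 2238 to 3204 CPM in polysome and 1167 to 1424 CPM in total libraries. MYH6 and MYH7 of cardiomyocytes and CD3E and MS4A1 of lymphocytes had 0 counts in all libraries. The rest of the cardiomyocyte list reached at most 21 counts (ACTC1), and of the leukocyte list 34 counts (CD14). Of the endothelial list no marker exceeded 9.917 CPM (TEK). Mural (vessel wall) markers were detected, with MCAM and CSPG4 reaching 230.6 and 206.4 CPM, while KCNJ8 stayed at or below 1 count. The mural list summed to 384.6 to 479.4 CPM in total and 77.79 to 142.9 CPM in polysome libraries. In bulk RNA, fewer cells of a type and less RNA per cell cannot be told apart.

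The promoters of 4 members are shown. SLC16A3 and ANKRD37 had the smallest p on knockdown in total RNA. LDHA and BNIP3 were called higher in polysomal than total RNA in both hairpin groups. Other members were called alike, so this result alone does not single them out. The sequences are from RefSeq on GRCh38.p14, read 5′ to 3′ on the gene's strand, from 250 bases before to 50 bases after the annotated start. Capitals mark the HIF core motif in its 2 forms, ACGTG and GCGTG, on either strand, where a CACGTG holds an ACGTG on both strands.
SLC16A3: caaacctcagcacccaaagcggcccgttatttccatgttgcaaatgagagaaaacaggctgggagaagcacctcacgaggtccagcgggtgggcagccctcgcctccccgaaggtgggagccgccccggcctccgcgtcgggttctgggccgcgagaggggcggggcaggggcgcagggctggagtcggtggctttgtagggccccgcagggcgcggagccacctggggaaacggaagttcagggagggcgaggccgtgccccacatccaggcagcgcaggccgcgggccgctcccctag
ANKRD37: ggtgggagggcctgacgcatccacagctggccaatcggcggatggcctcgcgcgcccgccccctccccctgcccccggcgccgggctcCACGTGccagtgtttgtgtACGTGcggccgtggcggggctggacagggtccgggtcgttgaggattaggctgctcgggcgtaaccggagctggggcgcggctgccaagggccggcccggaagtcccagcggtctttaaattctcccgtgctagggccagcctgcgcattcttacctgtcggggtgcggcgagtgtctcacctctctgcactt
LDHA: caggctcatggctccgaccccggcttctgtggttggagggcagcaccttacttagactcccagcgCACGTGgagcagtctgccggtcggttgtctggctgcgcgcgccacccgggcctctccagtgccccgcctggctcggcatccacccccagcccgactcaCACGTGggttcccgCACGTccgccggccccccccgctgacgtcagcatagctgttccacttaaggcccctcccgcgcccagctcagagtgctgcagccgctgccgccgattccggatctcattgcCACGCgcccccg
BNIP3: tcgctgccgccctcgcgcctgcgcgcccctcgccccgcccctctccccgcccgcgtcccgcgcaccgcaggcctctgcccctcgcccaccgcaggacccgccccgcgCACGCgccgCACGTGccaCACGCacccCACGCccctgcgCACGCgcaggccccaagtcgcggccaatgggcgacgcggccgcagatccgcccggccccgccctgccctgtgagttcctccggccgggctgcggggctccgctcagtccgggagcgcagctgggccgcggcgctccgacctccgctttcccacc
The SLC16A3 window lies at chr17:82228185-82228484 on the plus strand and holds 0 matches. The ANKRD37 window at chr4:185396591-185396890 (plus strand) holds 3 matches, all ACGTG. The LDHA window at chr11:18394313-18394612 (plus strand) holds 5 ACGTG and 1 GCGTG, and the BNIP3 window at chr10:131981874-131982173 (minus strand) holds 2 ACGTG and 4 GCGTG. The promoter table listed 32 of the 37 genes, all but SLC2A3, SLC16A1, VHL, BNIP3L and NDRG1. For each of these 32 genes only the first listed promoter was used. LDHA and BNIP3 held the most matches of the 32 (6 each), so they do not stand for polysome-enriched members. Among others called higher in polysomal RNA in both hairpin groups, ALDOC held 5 matches, and TPI1, PGAM1 and PDK1 held 0. The share over all promoters covers every entry, so the 2 sets were not chosen alike. At least 1 match stood in 23 of the 32 promoters (71.9%), against 48.4% of all 35116 promoters of the table. ACGTG stood in 12 of 32 (37.5%), against 21.4% of all promoters, and GCGTG in 16 of 32 (50.0%), against 36.5%. A match describes these letters only and says nothing of HIF binding in these cells.

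The payoff phase dominated the set's mRNA levels. On the scale of CPM per kilobase of mRNA, GAPDH led total RNA with 1352 ± 119 in knockdown and 1296 ± 30.7 in scramble cells (SD, n = 2). ENO1 followed with 1312 ± 177 in knockdown and 1217 ± 3.42 in scramble cells, a gap to GAPDH below the spread of the knockdown libraries. PKM (1046 and 1017), TPI1 (740 and 638) and LDHA (481 and 448) came next, each pair giving the knockdown mean before the scramble mean. HIF1A averaged 68.4 ± 8.13 CPM per kilobase in knockdown and 76.2 ± 2.04 in scramble total RNA, far above EPAS1 with 6.53 and 5.46. The least abundant members were PDK1, CA9 and EGLN3. EGLN3 had 6 counts summed over the knockdown total libraries and 3 over the scramble total libraries, and CA9 had 15 and 8 counts. These lengths are those of a GENCODE v29 transcript per gene, and cells that use a shorter form have a higher level per kilobase than given here.

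No member passed edgeR's test on EIF4G2 knockdown. In total RNA 0 of 37 members were called at an adjusted p under 0.05, against 0% of the 16228 genes tested. In polysomal RNA 0 of 37 were called, against 0.0123% of all genes, and for the knockdown change of the polysome-to-total ratio 0 of 37, against 0%. DESeq2 called 1 member in total RNA, the lactate exporter SLC16A3, which was higher (0.16% of all genes were called, 0.117% higher), 0 members in polysomal RNA (1.4%) and 0 for the ratio (0.0246%). At an unadjusted p under 0.05, edgeR took 4 of 37 members in total RNA (3.68% of all genes), 4 of 37 in polysomal RNA (13.3%) and 2 of 37 for the ratio (6.27%).

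The median log2 fold change of the members, knockdown over scramble, was 0.08 in total RNA (0.02 for all genes) and −0.03 in polysomal RNA (−0.01 for all genes). For the ratio it was −0.13 (−0.07 for all genes). The 95% interval of the log2 fold change lay inside −1 to 1 for 32 of 37 members in total RNA, for 32 of 37 in polysomal RNA and for 25 of 37 for the ratio. In total RNA the exceptions were SLC16A3, LDHB, EGLN3, CA9 and ANKRD37, and in polysomal RNA they were EPAS1, EGLN1, EGLN3, CA9 and ADM. Knockdown and scramble libraries did not overlap for 21 members in total RNA, where this held for 47.9% of all genes, and for 10 in polysomal RNA, where it held for 34% of all genes.

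**Figure D1:**
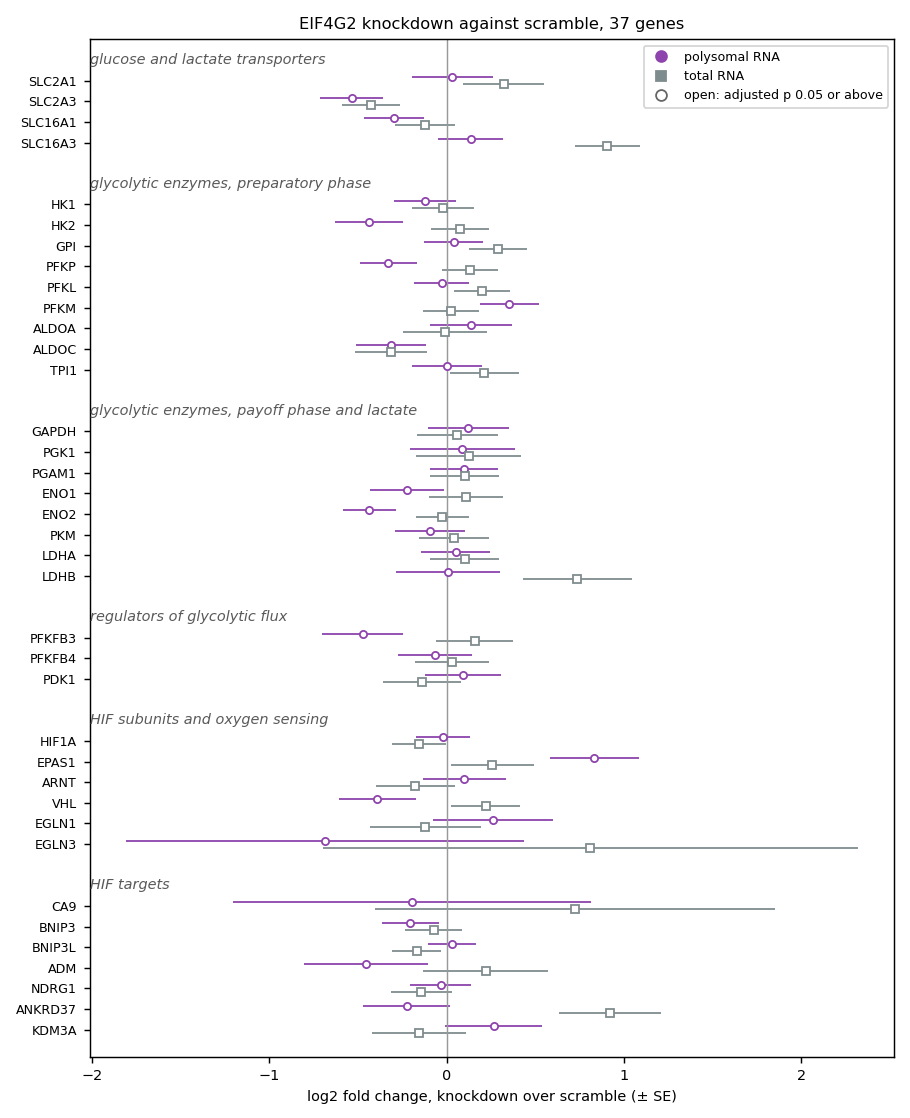
Log2 fold change of knockdown over scramble for the 37 genes in polysomal RNA (purple circles) and total RNA (grey squares), with SE as bars, grouped by role. All symbols are open because no adjusted p by edgeR was below 0.05, and SLC16A3, ANKRD37 and LDHB lie furthest to the right in total RNA among genes with narrow errors (0.91, 0.92 and 0.74).

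The fraction comparisons, polysomal over total RNA, moved most members. In knockdown cells 17 members were higher and 10 lower in polysomal RNA (edgeR, adjusted p under 0.05), where 28.9% of all genes were higher and 34.1% lower, 63% in all. In scramble cells 22 were higher and 10 lower, where 29.7% of all genes were higher and 33.7% lower, 63.4% in all. The 22 include EGLN3, which passed the low-count filter through polysome libraries alone, so its call is no support. The median log2 fold change of the members was 0.68 in knockdown cells (−0.16 for all genes) and 0.97 in scramble cells (−0.17 for all genes). These values are relative to the TMM scaling, under which a level in polysomal RNA is a share and not an amount per cell. With library totals alone the median of all genes moved by −1.06 in knockdown and −0.998 in scramble cells, and 10 members were higher and 18 lower in knockdown cells, and 11 higher and 16 lower in scramble cells. The median was then −0.38 for the members and −1.22 for all genes in knockdown cells, and −0.05 and −1.16 in scramble cells. The share of all genes called with library totals alone is not given, so counts under that scaling, here and below, have no background.

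**Figure D2:**
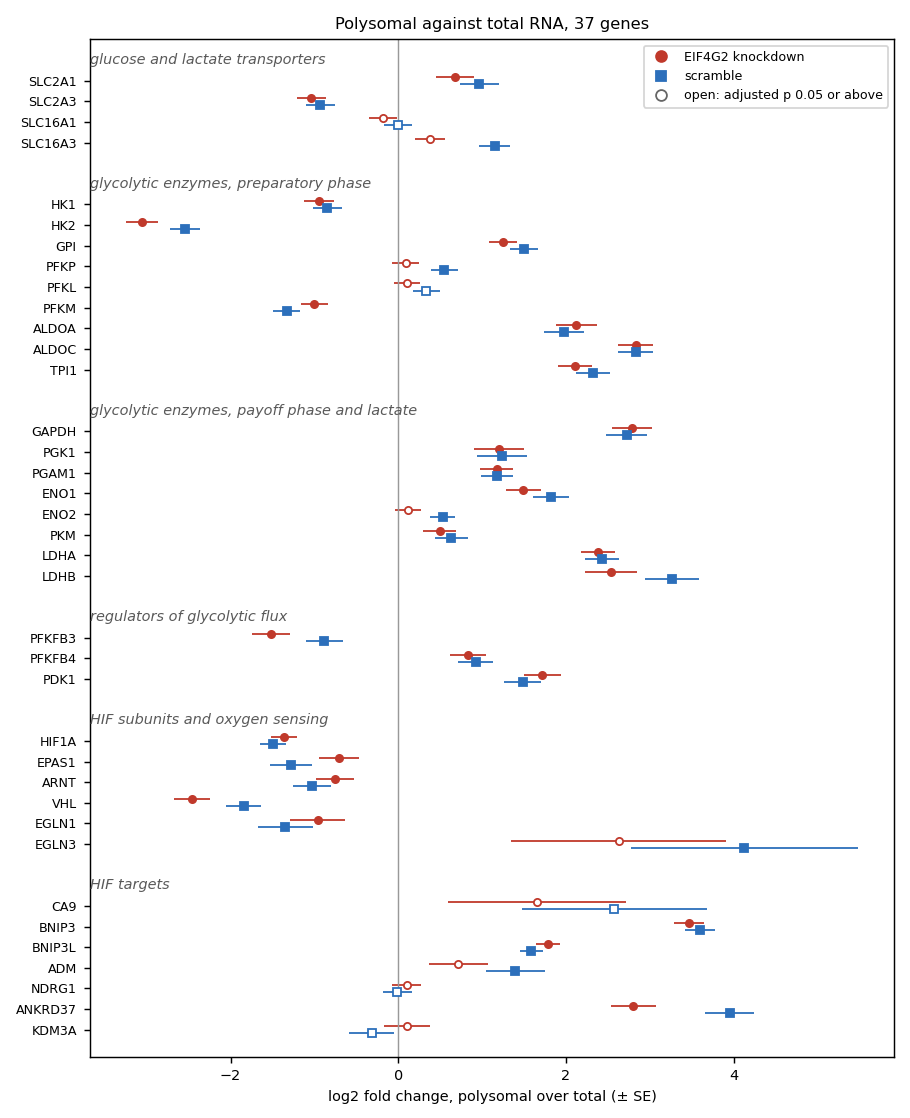
Log2 fold change of polysomal over total RNA for the 37 genes in knockdown (red circles) and scramble cells (blue squares), with SE as bars and open symbols where the adjusted p was 0.05 or above, grouped by role and on the TMM scale. GAPDH, LDHA, LDHB, TPI1, ALDOA, ALDOC, BNIP3 and ANKRD37 lie right of 1.9 in both, and HK2, VHL and HIF1A lie left of −1.3 in both; with library totals alone all values move left by about 1, and PFKP, PFKL, ENO2, PKM, SLC2A1 and PFKFB4 fall below 0 in both.

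Among the transporters, the lactate exporter SLC16A3 (MCT4) was the member with the smallest p on knockdown. It had 363 and 345 CPM in knockdown total libraries, against 193 and 185 CPM in scramble total libraries. In polysomal RNA it had 401 and 519.7 CPM in knockdown cells, against 362 and 476 CPM in scramble cells. Both knockdown libraries were above both scramble libraries in total RNA, and the groups overlapped in polysomal RNA. The fold change was 1.87 in total RNA (log2 0.91 ± 0.18, SE), with an adjusted p of 0.548 by edgeR and 0.00141 by DESeq2. Leaving out a library at a time kept the log2 value between 0.87 and 0.94, and edgeR's adjusted p between 0.252 and 1. In polysomal RNA the log2 fold change was 0.14 ± 0.18 (edgeR adjusted p = 0.802), and the ratio changed by −0.77 ± 0.26 (unadjusted p = 0.0128, adjusted p = 0.776 by edgeR). SLC16A3 was higher in polysomal than total RNA in scramble cells (log2 1.15 ± 0.18, edgeR adjusted p = 0.000261) and did not pass in knockdown cells (0.38 ± 0.18, adjusted p = 0.0926), where library totals alone gave −0.69. With the trend of transcript length removed (described below) it passed in knockdown cells (1.36, edgeR adjusted p = 0.000178).

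SLC2A3 (GLUT3), a glucose importer, had lower values in both knockdown fractions without passing the test. It had 16.8 and 16.7 CPM in knockdown polysome libraries, against 22.2 and 26.5 CPM in scramble polysome libraries. In total RNA it had 32.2 and 36.8 CPM in knockdown cells, against 43.3 and 49.4 CPM in scramble cells. Both knockdown libraries lay below both scramble libraries in each fraction. The log2 fold change was −0.54 ± 0.18 in polysomal RNA (edgeR adjusted p = 0.252) and −0.43 ± 0.17 in total RNA (adjusted p = 1). SLC2A3 was lower in polysomal than total RNA in knockdown (log2 −1.04 ± 0.17) and in scramble cells (−0.93 ± 0.17), with adjusted p-values of 0.000344 and 0.000608 by edgeR. With the trend of transcript length removed (described below) the scramble call was lost (−0.28, adjusted p = 0.125). SLC2A1 (GLUT1), the main glucose importer of most cultured cells, was higher in polysomal RNA in knockdown (log2 0.68) and scramble cells (0.97), and stood below 0 with library totals alone (−0.38 and −0.05). Its call in knockdown cells was lost without any single knockdown library, with log2 values of 0.50 to 0.66. SLC16A1 (MCT1), which moves lactate both ways, was not called in any comparison. With the length trend removed it was called higher in polysomal RNA in knockdown (0.64) and scramble cells (0.83), with edgeR adjusted p-values of 0.00605 and 0.00145.

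**Figure D3:**
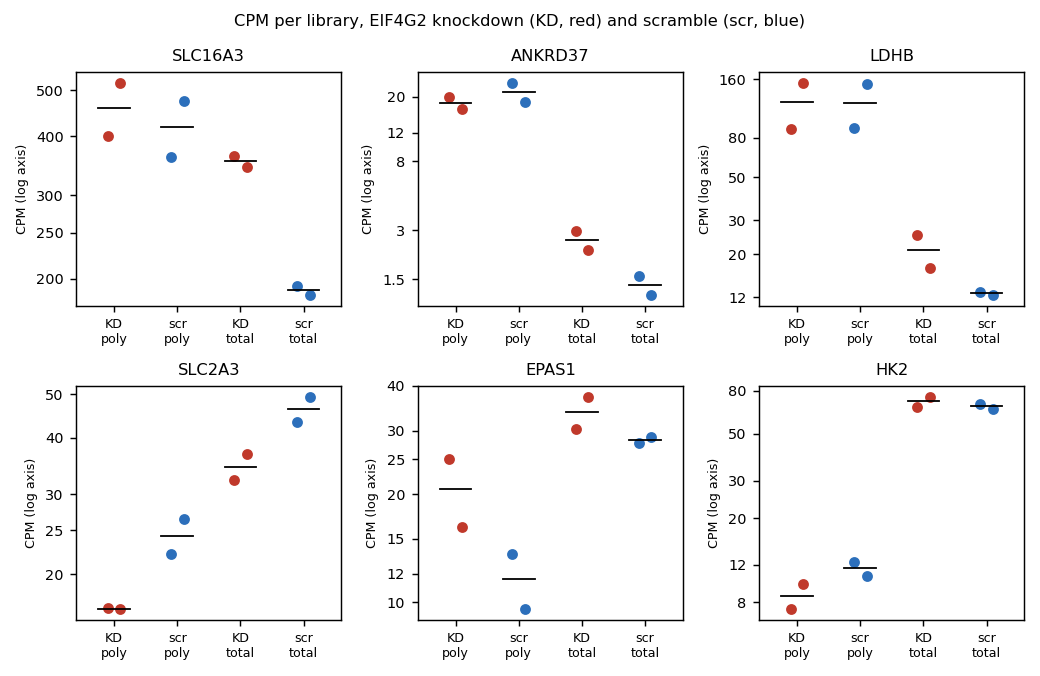
CPM per library (log axis) of 6 members in knockdown polysome, scramble polysome, knockdown total and scramble total libraries, with points for libraries and bars for means of 2. SLC16A3, ANKRD37 and LDHB lie higher in knockdown than scramble total RNA without overlap, SLC2A3 lies lower in knockdown in both fractions, EPAS1 lies higher in knockdown polysomal RNA, and HK2 is near 10 CPM in polysomal and near 70 CPM in total RNA.

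The preparatory phase was split between genes, and the phosphofructokinase genes did not move together. Hexokinase and PFKM mRNAs were lower in polysomal than total RNA, and GPI, the aldolases and TPI1 were higher, in both hairpin groups. In knockdown cells 4 of 9 members were higher and 3 lower, where 28.9% of all genes were higher and 34.1% lower, and in scramble cells 5 were higher and 3 lower, where 29.7% and 33.7% of all genes were. The share of lower members thus lay near that of all genes. With library totals alone these counts were 3 and 5 in knockdown cells and 4 and 5 in scramble cells, with PFKP and PFKL below 0 in both.

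HK2, the HIF-inducible hexokinase, had the strongest depletion of the set. It had 7.43 and 9.77 CPM in knockdown polysome libraries, against 67.4 and 75.2 CPM in knockdown total libraries. In scramble cells it had 12.5 and 10.7 CPM in polysomal RNA, against 69.2 and 65.9 CPM in total RNA. Polysome libraries were far below total libraries in both hairpin groups. The log2 fold change was −3.06 ± 0.19 in knockdown cells (edgeR adjusted p = 7.15e-07) and −2.54 ± 0.18 in scramble cells (1.29e-06), so the polysomal level was lower by 8.32 and 5.83 times. Between hairpins HK2 was at log2 −0.44 ± 0.19 in polysomal RNA (unadjusted p = 0.0421, adjusted p = 0.355 by edgeR), with both knockdown libraries below both scramble libraries. Its ratio changed by −0.51 ± 0.25 (adjusted p = 0.776). HK1, the housekeeping hexokinase, was also lower in polysomal RNA, at log2 −0.95 in knockdown and −0.85 in scramble cells, and lost its scramble call with the length trend removed (−0.33, adjusted p = 0.068).

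Phosphofructokinase, the committed step, is encoded by PFKM, PFKP and PFKL. PFKL, named for liver, was not called in any comparison, and its polysomal over total RNA was at log2 0.11 in knockdown cells and 0.34 in scramble cells (edgeR adjusted p = 0.562 and 0.0809). With the length trend removed it was called higher in scramble cells (0.45, edgeR adjusted p = 0.012) and not in knockdown cells (0.26, adjusted p = 0.1). PFKM, named for muscle, had 41.1 and 31.8 CPM in knockdown polysome libraries, against 30.2 and 26.9 CPM in scramble polysome libraries. In total RNA it had 71.5 and 74.9 CPM in knockdown cells, against 72.7 and 70.9 CPM in scramble cells. Polysome levels lay below total levels in all libraries, and knockdown lay above scramble in polysomal RNA and overlapped with it in total RNA. The log2 fold change of polysomal over total RNA was −1.003 ± 0.16 in knockdown and −1.33 ± 0.16 in scramble cells (edgeR adjusted p = 0.000282 and 3.48e-05). Between hairpins it was 0.35 ± 0.16 in polysomal RNA (unadjusted p = 0.0548, adjusted p = 0.388). PFKP, named for platelets and the most abundant of the 3, had 429 and 447 CPM in knockdown polysome libraries, against 488 and 613 CPM in scramble polysome libraries. In total RNA PFKP had 417 and 408 CPM in knockdown cells, against 375 and 378 CPM in scramble cells. It was lower without overlap in knockdown polysomal RNA (log2 −0.33 ± 0.16, adjusted p = 0.41) and higher without overlap in knockdown total RNA (0.13 ± 0.16, adjusted p = 1), neither of which passed. Its ratio changed by −0.46 ± 0.23 (adjusted p = 0.776). PFKP was called higher in polysomal than total RNA in scramble cells (log2 0.55, −0.46 with library totals alone), a call lost without scramble total replicate 1 (0.52), scramble total replicate 2 (0.52) or scramble polysome replicate 2 (0.31).

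GPI, which interconverts glucose and fructose phosphates, had 297 and 246 CPM in knockdown total libraries, against 233 and 211 CPM in scramble total libraries. In polysomal RNA it had 693 and 600.2 CPM in knockdown cells, against 604 and 653 CPM in scramble cells. Knockdown lay above scramble in total RNA and overlapped with it in polysomal RNA. The total RNA difference was log2 0.29 ± 0.17 (edgeR adjusted p = 1), and the polysomal level was 2.38 times the total level in knockdown and 2.83 times in scramble cells. ALDOC, the brain aldolase that HIF also induces, had 126 and 89.5 CPM in knockdown polysome libraries, against 152 and 116 CPM in scramble polysome libraries. In total RNA ALDOC had 16.1 and 14.2 CPM in knockdown cells, against 17.5 and 20.2 CPM in scramble cells. It was lower without overlap in knockdown total RNA (log2 −0.31 ± 0.20, adjusted p = 1), and its polysomal level was 7.11 times the total level in knockdown and 7.10 times in scramble cells (log2 2.83 ± 0.21 in each). ALDOA shares 53.5% of its annotated exon bases with other genes in GENCODE v29 (42.3% with a gene on the same strand) and ALDOC 10.1%. The rule for counting reads in shared bases is not known here, so the aldolase counts are uncertain.

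Of the 8 payoff-phase members 7 were higher in polysomal RNA of knockdown cells, ENO2 being the exception, and all 8 in scramble cells, where 28.9% of all genes were higher in knockdown and 29.7% in scramble cells. PGAM1, phosphoglycerate mutase, lost both calls with the length trend removed (log2 0.45 in knockdown cells, adjusted p = 0.053, and 0.33 in scramble cells, adjusted p = 0.147). The median log2 fold change was 1.35 in knockdown and 1.53 in scramble cells, against −0.16 and −0.17 for all genes. With library totals alone 3 were higher and 2 lower in knockdown cells, and 4 higher and 1 lower in scramble cells, with ENO2 and PKM below 0 in both. Several of these calls were lost without single libraries. PGK1, the first ATP-making step, was at log2 1.20 in knockdown and 1.23 in scramble cells, but at 0.60 without knockdown polysome replicate 1 (adjusted p = 0.11), 1.06 without knockdown total replicate 2 (0.0655) and 0.68 without scramble polysome replicate 1 (0.0793). PKM, pyruvate kinase, was at 0.49 in knockdown cells, and all leave-outs but that of knockdown total replicate 1 ended this call (0.30 to 0.46). In scramble cells PKM was at 0.63 and lost its call without scramble total replicate 1 (0.59) or 2 (0.61).

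GAPDH, often used as a reference gene, was the most abundant member per kilobase and was higher in the polysome fraction. ENO1 and PKM had more CPM than GAPDH in total RNA. It had 19180.5 and 15766 CPM in knockdown polysome libraries, against 2694 and 2378 CPM in knockdown total libraries. In scramble cells it had 17240 and 14844 CPM in polysomal RNA, against 2389 and 2471 CPM in total RNA. The polysomal level was 6.89 times the total level in knockdown cells (log2 2.78 ± 0.24, edgeR adjusted p = 3.72e-06) and 6.60 times in scramble cells (2.72 ± 0.24, 3.89e-06). Between hairpins GAPDH differed by log2 0.12 ± 0.23 in polysomal and 0.06 ± 0.23 in total RNA, with intervals of −0.38 to 0.62 and −0.44 to 0.56. Of its exon bases 14.2% overlap an antisense gene. LDHA, which makes lactate from pyruvate, was at log2 2.38 in knockdown and 2.43 in scramble cells, and its log2 change on knockdown was 0.05 ± 0.19 in polysomal and 0.10 ± 0.19 in total RNA.

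LDHB, the lactate dehydrogenase subunit that favours lactate use, was higher in knockdown total RNA at an unadjusted p of 0.0355. It had 25.1 and 16.9 CPM in knockdown total libraries, against 12.9 and 12.3 CPM in scramble total libraries. In polysomal RNA it had 89.2 and 154 CPM in knockdown cells, against 89.7 and 152 CPM in scramble cells. The groups did not overlap in total RNA, and in polysomal RNA replicate 2 was high and replicate 1 low in both hairpin groups. On knockdown LDHB was at log2 0.74 ± 0.31 in total RNA (edgeR adjusted p = 1, DESeq2 adjusted p = 0.85) and 0.01 ± 0.29 in polysomal RNA. Without knockdown total replicate 1, the library with the highest ribosomal protein mRNA share among total libraries (5.63% against 4.25 to 4.45%), the total RNA value was 0.43. LDHB was 5.79 times higher in polysomal than total RNA in knockdown cells (log2 2.53 ± 0.31) and 9.59 times in scramble cells (3.26 ± 0.32), and 33.4% of its exon bases are shared with a same-strand gene. ENO2, the neuronal enolase, had 80.1 and 74.0 CPM in knockdown polysome libraries, against 94.9 and 114 CPM in scramble polysome libraries. In total RNA ENO2 had 75.8 and 66.5 CPM in knockdown cells, against 71.0 and 73.7 CPM in scramble cells. Knockdown lay below scramble in polysomal RNA (log2 −0.44 ± 0.15, unadjusted p = 0.0143, edgeR adjusted p = 0.271) and overlapped with it in total RNA (−0.02 ± 0.15). Its call in scramble cells (log2 0.53) was lost without scramble total replicate 1 (0.47), scramble total replicate 2 (0.52) or scramble polysome replicate 2 (0.33).

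The 3 regulators of flux moved apart between fractions. PFKFB3 and PFKFB4 make and break down fructose-2,6-bisphosphate, the activator of phosphofructokinase, and PDK1 is a kinase that inhibits pyruvate dehydrogenase. PFKFB3 had 17.8 and 10.5 CPM in knockdown polysome libraries, against 37.8 and 43.6 CPM in knockdown total libraries. In scramble cells it had 20.4 and 19.1 CPM in polysomal RNA, against 37.7 and 35.2 CPM in total RNA. Polysomal libraries were below total libraries in both hairpin groups, with log2 values of −1.52 ± 0.23 in knockdown and −0.88 ± 0.22 in scramble cells (edgeR adjusted p = 0.000165 and 0.00491). With the length trend removed the scramble value was −0.0055 (adjusted p = 0.984) and its call was lost. The ratio changed by −0.63 ± 0.31, with an unadjusted p of 0.0706 and an adjusted p of 0.776, and between −1.08 and −0.36 when single libraries were left out. PFKFB4 and PDK1 were higher in polysomal RNA in both hairpin groups (PFKFB4 log2 0.83 in knockdown and 0.92 in scramble cells, PDK1 1.72 and 1.48). PFKFB4 was below 0 with library totals alone (−0.23 and −0.08), and its call in knockdown cells was lost without knockdown total replicate 2 (0.71) or knockdown polysome replicate 2 (0.48).

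Of the 6 HIF subunits and oxygen-sensing factors, HIF1A, EPAS1, ARNT, VHL and EGLN1 were lower in polysomal than total RNA in both hairpin groups, where 34.1% of all genes were lower in knockdown and 33.7% in scramble cells. With the length trend removed HIF1A and VHL were called lower, and EPAS1 (log2 0.37 in knockdown and −0.19 in scramble cells), ARNT (0.23 and −0.02) and EGLN1 (0.43 and 0.05) did not pass. HIF1A, the alpha subunit of most cells, had 113 and 95.7 CPM in knockdown polysome libraries, against 246 and 291 CPM in knockdown total libraries. In scramble cells it had 109.7 and 102 CPM in polysomal RNA, against 304 and 293 CPM in total RNA. Polysomal over total RNA stood at log2 −1.36 ± 0.16 in knockdown and −1.50 ± 0.16 in scramble cells (edgeR adjusted p = 2.16e-05 and 1.04e-05), without overlap. On knockdown HIF1A was at log2 −0.02 ± 0.15 in polysomal and −0.16 ± 0.15 in total RNA, with 95% intervals of −0.36 to 0.32 and −0.49 to 0.18.

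EPAS1 (HIF-2 alpha), prominent in endothelium and other specialised cells, was the member with the smallest p on knockdown in polysomal RNA. It had 25.1 and 16.2 CPM in knockdown polysome libraries, against 13.7 and 9.57 CPM in scramble polysome libraries. In total RNA it had 30.3 and 37.2 CPM in knockdown cells, against 27.7 and 28.8 CPM in scramble cells. Knockdown lay above scramble in both fractions without overlap, and replicate 1 lay above replicate 2 in both polysome groups. Knockdown over scramble was log2 0.83 ± 0.25 in polysomal RNA (unadjusted p = 0.00689, adjusted p = 0.23 by edgeR and 0.109 by DESeq2) and 0.26 ± 0.23 in total RNA (adjusted p = 1). Leaving out single libraries put the polysomal value between 0.44 (without knockdown polysome replicate 1) and 1.09 (without scramble polysome replicate 1). The ratio changed by 0.57 ± 0.34 (adjusted p = 0.792). EPAS1 was lower in polysomal than total RNA at log2 −0.70 in knockdown and −1.28 in scramble cells, and the knockdown call was lost without knockdown total replicate 2 (−0.58) or knockdown polysome replicate 2 (−0.56).

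VHL, the substrate receptor that binds hydroxylated HIF alpha, had 8.17 and 12.2 CPM in knockdown polysome libraries, against 61.8 and 49.4 CPM in knockdown total libraries. In scramble cells it had 13.2 and 13.4 CPM in polysomal RNA, against 49.2 and 46.2 CPM in total RNA. Polysomal levels were lower by 5.48 times in knockdown cells (log2 −2.46 ± 0.22, edgeR adjusted p = 4.03e-06) and by 3.59 times in scramble cells (−1.84 ± 0.21, 1.85e-05). Knockdown lay below scramble in polysomal RNA (log2 −0.39 ± 0.22, adjusted p = 0.466) and above it in total RNA (0.22 ± 0.19, adjusted p = 1), both without overlap. The ratio changed by −0.61 ± 0.29 (unadjusted p = 0.0598, adjusted p = 0.776). EGLN1 (PHD2), the main HIF prolyl hydroxylase, had 14.2 and 10.4 CPM in knockdown polysome libraries, against 18.03 and 30.3 CPM in knockdown total libraries. In scramble cells EGLN1 had 13.6 and 7.01 CPM in polysomal RNA, against 28.1 and 24.5 CPM in total RNA. Its log2 fold change was −0.96 ± 0.33 in knockdown and −1.35 ± 0.33 in scramble cells (adjusted p = 0.0247 and 0.00426). The knockdown call was lost without knockdown total replicate 2 (−0.57) or knockdown polysome replicate 2 (−0.89), and the scramble value was −2.01 without scramble polysome replicate 1. ARNT, the shared partner subunit, was at −0.76 in knockdown cells, a call lost without knockdown total replicate 2 (−0.72), and at −1.03 in scramble cells.

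EGLN3 (PHD3), a hydroxylase that HIF itself induces, was the opposite case at very low counts. It had 16 counts over the knockdown polysome libraries against 6 over the knockdown total libraries, and 35 over the scramble polysome libraries against 3 over the scramble total libraries, of which replicate 2 had 0. The ratio of CPM was 6.24 in knockdown cells (95% interval 2.32 to 19.5, counting error only) and 18.7 in scramble cells (5.91 to 95.3). EGLN3 passed the low-count filter through polysome libraries, where it was high, so edgeR's call in scramble cells is no support for the difference. It was lost without scramble total replicate 2 (log2 3.22) or scramble polysome replicate 2 (3.78), and the value was 7.42 without scramble total replicate 1. The fitted log2 value (4.13) depends on the prior count and is no bound.

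Of the 7 HIF targets, 3 were higher in polysomal RNA of knockdown cells and 4 in scramble cells, where 28.9% and 29.7% of all genes were higher, and none was lower by edgeR, DESeq2 or an unadjusted p under 0.05. BNIP3, a mitochondrial receptor for mitophagy, had 902 and 1044 CPM in knockdown polysome libraries, against 94.7 and 81.5 CPM in knockdown total libraries. In scramble cells it had 1103 and 1138 CPM in polysomal RNA, against 90.5 and 94.98 CPM in total RNA. The polysomal level was 11.0 times the total level in knockdown cells (log2 3.46 ± 0.18, edgeR adjusted p = 3.57e-07) and 12.1 times in scramble cells (3.59 ± 0.18, 4.18e-07). The log2 change on knockdown was −0.20 ± 0.16 in polysomal and −0.07 ± 0.16 in total RNA. Its relative BNIP3L was also higher in polysomal RNA, at log2 1.79 in knockdown and 1.59 in scramble cells.

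ANKRD37, a small ankyrin-repeat protein whose gene is among the most hypoxia-inducible, combined polysome enrichment with a higher level in knockdown total RNA. It had 2.98 and 2.27 CPM in knockdown total libraries, against 1.57 and 1.20 CPM in scramble total libraries. In polysomal RNA it had 19.9 and 16.8 CPM in knockdown cells, against 24.4 and 18.5 CPM in scramble cells. The groups did not overlap in total RNA and overlapped in polysomal RNA. On knockdown ANKRD37 was at log2 0.92 ± 0.29 in total RNA (unadjusted p = 0.0088, edgeR adjusted p = 1, DESeq2 adjusted p = 0.603) and −0.23 ± 0.24 in polysomal RNA. The ratio changed by −1.15 ± 0.38, the smallest p of the set for the ratio (unadjusted p = 0.0115, adjusted p = 0.776), and by −1.38 to −0.94 when single libraries were left out. ANKRD37 was 6.98 times higher in polysomal than total RNA in knockdown cells (log2 2.80 ± 0.27) and 15.4 times in scramble cells (3.95 ± 0.29). With the length trend removed ANKRD37 (1141 nt) stood at log2 1.39 in knockdown and 2.30 in scramble cells (edgeR adjusted p = 0.000793 and 5.77e-05). Of its exon bases 35.2% overlap UFSP2 on the opposite strand, and UFSP2 itself was at log2 −0.07 on knockdown in total RNA and at 1.22 in knockdown and 1.27 in scramble cells for polysomal over total RNA. Whether reads were counted by strand is not known here.

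The remaining targets were ADM (adrenomedullin, a vasodilator peptide), CA9 (a pH-regulating carbonic anhydrase), NDRG1 (a stress-response protein) and KDM3A (a histone demethylase). ADM was called higher in polysomal RNA in scramble cells (log2 1.39) and not in knockdown cells (0.72, adjusted p = 0.0983), a call lost without scramble total replicate 1 (1.17) or scramble polysome replicate 2 (0.95) and with the length trend removed (0.60, adjusted p = 0.15), and its ratio change of −0.68 ± 0.49 had an adjusted p of 0.83. CA9 had 19 counts over knockdown polysome against 15 over knockdown total libraries, and 31 over scramble polysome against 8 over scramble total libraries. Knockdown polysome replicate 2 held 17 of its 19 counts, and without it the knockdown log2 value of polysomal over total RNA was −0.93, against 1.65 with it. Of the exon bases of CA9 38.5% overlap ARHGEF39 on the opposite strand, which had 1488 counts over all libraries, so the CA9 counts are uncertain. NDRG1 and KDM3A were not called in either fraction comparison and stood below 0 in knockdown cells with library totals alone (both at −0.95).

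Paralog pairs were compared per kilobase within each library, as a description with no test. HK1 made up 95.5 ± 1.56% of hexokinase mRNA in knockdown polysome and 83.4 ± 1.24% in knockdown total libraries (SD, n = 2), and 94.4 ± 1.60% in scramble polysome and 84.3 ± 0.549% in scramble total libraries. SLC16A3 made up 72.5 ± 0.393% of the lactate transporter pair in knockdown total and 56.4 ± 0.249% in scramble total libraries, and 79.4 ± 1.70% in knockdown polysome and 74.3 ± 0.695% in scramble polysome libraries. SLC2A1 held 88.0 ± 0.837% of the glucose transporter pair in knockdown total and 81.4 ± 1.30% in scramble total libraries. EPAS1 held 12.9 ± 2.12% of the 2 HIF alpha mRNAs in knockdown polysome libraries, against 7.63 ± 1.40% in scramble polysome libraries. BNIP3 held 80.8 ± 2.33% of the BNIP3 and BNIP3L pair in knockdown polysome and 57.0 ± 0.968% in knockdown total libraries, against 83.3 ± 0.816% and 55.4 ± 0.123% in the scramble polysome and scramble total libraries. LDHA held at least 95.9% of the lactate dehydrogenase pair in all libraries. This share is uncertain, because LDHB shares 33.4% of its exon bases with a same-strand gene. The aldolase overlaps were given above.

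Transcript length moved with the fraction comparisons. Over the 12682 tested genes with a GENCODE v29 mRNA length, Spearman's rho of length with the log2 fold change of polysomal over total RNA was −0.556 in knockdown and −0.604 in scramble cells. Over the 37 members it was −0.629 in knockdown and −0.681 in scramble cells, and with coding length −0.643 and −0.649. The points share libraries, so no p is given. In the shortest of 10 length bins (207 to 1366 nt) the median log2 value of all genes was 1.64 in knockdown and 1.90 in scramble cells, and in the longest bin (from 7237 nt) −1.64 and −1.73. With the length trend of each library removed, 20 members were higher and 7 lower in knockdown cells, and 24 higher and 4 lower in scramble cells. The 24 again include EGLN3, whose call is no support because of the low-count filter. The share of all genes called in this setting is not given here, so these counts have no background. The median log2 value there was 0.73 for the members and 0.02 for all genes in knockdown cells. In scramble cells it was 0.78 for the members and 0.002 for all genes.

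HK2 (5772 nt) then stood at log2 −1.86 in knockdown and −1.33 in scramble cells, VHL (3737 nt, of which 639 nt code) at −1.89 and −1.26, HIF1A (3919 nt) at −0.72 and −0.84, and PFKM (3224 nt) at −0.67 and −1.01. All 4 passed edgeR's test there, with adjusted p-values up to 0.00315. The calls lost with the trend removed were those of EPAS1, ARNT, EGLN1 and PGAM1 in both hairpin groups, and of SLC2A3, HK1, PFKFB3 and ADM in scramble cells. Calls gained, all higher in polysomal RNA, were those of SLC16A1, NDRG1 and KDM3A in both hairpin groups. SLC16A3 was gained in knockdown cells (1.36) and PFKL in scramble cells (0.45). The polysome enrichment of BNIP3 (2861 nt) was 3.59 in knockdown and 3.67 in scramble cells, that of LDHA (2416 nt) 2.18 and 2.14, and that of GAPDH (1875 nt) 2.11 and 1.92. TPI1, at 1231 nt among the shortest, was at 0.79 in knockdown and 0.78 in scramble cells, against 2.11 and 2.32 before. PDK1 is annotated at 14193 nt, and a shorter form in these cells would lower its value with the trend removed (3.52 in knockdown and 3.41 in scramble cells).

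**Figure D4:**
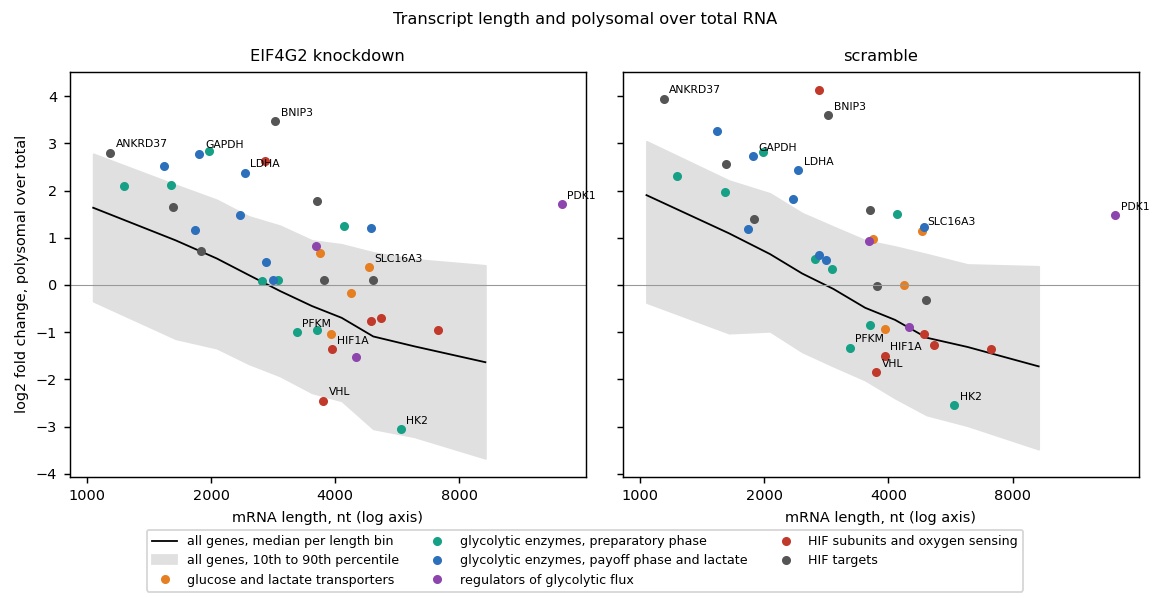
Log2 fold change of polysomal over total RNA (TMM scale) against annotated mRNA length (log axis) for the 37 genes by role, in knockdown (left) and scramble cells (right). The line is the median of all genes per length bin, 1.64 and 1.90 in the shortest bin and −1.64 and −1.73 in the longest, the band spans the 10th to 90th percentile, and BNIP3, LDHA and GAPDH lie above the band while PFKM, HIF1A, VHL and HK2 lie below the line.

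The wider pathway was read from 106 other genes in 3 lists. Of 45 other HIF targets 44 were tested. On knockdown edgeR called 0 of them in either fraction or for the ratio, with 6 at an unadjusted p under 0.05 in total RNA and 8 in polysomal RNA, and DESeq2 called 2 in total RNA and 3 in polysomal RNA. Over all genes these shares were 3.68% and 13.3% at an unadjusted p under 0.05, and 0.16% and 1.4% by DESeq2. Their median log2 fold change in total RNA was 0.16 (0.02 for all genes), with 34 above 0 and 10 below, where 52.8% of all genes lay above 0 and 47.1% below, and in polysomal RNA −0.03. Between fractions 19 were higher and 13 lower in knockdown cells, and 24 higher and 12 lower in scramble cells, where 28.9% of all genes were higher and 34.1% lower in knockdown cells, and 29.7% and 33.7% in scramble cells. With library totals alone the counts were 14 higher and 26 lower in knockdown cells, and 14 and 19 in scramble cells. Of 47 other glycolytic isozymes and linked enzymes 32 were tested, and of 14 other HIF pathway genes 13, with 0 called on knockdown by edgeR or DESeq2 in either list. At an unadjusted p under 0.05 the isozyme list had 1 gene in total and 5 in polysomal RNA, and the HIF pathway list 0 and 1, against the same 3.68% and 13.3% of all genes.

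VEGFA, the angiogenic growth factor, had 90.8 and 105 CPM in knockdown total libraries, against 51.5 and 54.3 CPM in scramble total libraries. In polysomal RNA it had 26.4 and 20.1 CPM in knockdown cells, against 22.2 and 22.5 CPM in scramble cells. The groups were apart in total RNA and overlapped in polysomal RNA. The log2 fold change in total RNA was 0.89 ± 0.16 (adjusted p = 0.41 by edgeR and 0.00273 by DESeq2), and the ratio changed by −0.83 ± 0.24 (unadjusted p = 0.00521, edgeR adjusted p = 0.776). ANGPTL4, a lipase inhibitor that HIF induces, had 16.9 and 15.99 CPM in knockdown total libraries, against 7.45 and 6.39 CPM in scramble total libraries (log2 1.25 ± 0.29, adjusted p = 0.767 by edgeR and 0.0254 by DESeq2).

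In polysomal RNA MXI1, a MYC antagonist, had 32.3 and 23.5 CPM in knockdown cells, against 12.9 and 13.0 CPM in scramble cells (log2 1.11 ± 0.21, adjusted p = 0.161 by edgeR and 0.00402 by DESeq2). TMEM45A, a hypoxia-inducible membrane protein, had 127 and 89.7 CPM in knockdown cells, against 53.9 and 63.3 CPM in scramble cells (0.89 ± 0.19, edgeR adjusted p = 0.161, DESeq2 adjusted p = 0.00654). P4HA2, a collagen prolyl hydroxylase subunit, was lower, with 163 and 134 CPM in knockdown against 216 and 213 CPM in scramble polysome libraries (−0.53 ± 0.14, edgeR adjusted p = 0.196, DESeq2 adjusted p = 0.0408). For all 3 genes the knockdown and scramble polysome libraries did not overlap. PFKFB2, a further phosphofructokinase regulator, had 0 counts in both knockdown polysome libraries and 8 in each scramble polysome library, against 78 and 114 counts summed over the knockdown total and scramble total libraries. BPGM, the red-cell bisphosphoglycerate enzyme, was 9.51 times higher in polysomal than total RNA in knockdown cells and 9.58 times in scramble cells, TMEM45A 10.7 times in knockdown and 7.55 times in scramble cells, and MPC2, a subunit of the mitochondrial pyruvate carrier, 3.87 times in knockdown and 5.91 times in scramble cells.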

How the data were processed

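The authors deposited whole-number counts per gene symbol for 8 libraries, without normalization. Per the submitters' processing notes, the tools were HISAT2 2.1.0 and featureCounts (Subread 2.0.1), after bcl2fastq 2.19.0 and Trimmomatic 0.36, with GRCh38, and R 4.1.2 with DESeq2. Annotation, strand setting and handling of multiple matches are not given in the sources used here. More replicates per group are mentioned in the design text than the 2 analysed here.

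edgeR 4.0.16 in R 4.3.3 (quasi-likelihood, robust) was run on the counts with 4 group means over all 8 libraries, after filterByExpr and TMM scaling. Adjusted p (Benjamini-Hochberg) covers all 16228 genes tested, with a threshold of 0.05. SE is the log2 fold change over the square root of F. Intervals of counts cover counting error only. DESeq2 1.42.0, other scalings and filters, a replicate block and leaving out each library were alternatives; removal of the length trend (lowess, span 0.3) and scaling without ribosomal protein and mitochondrial genes were added after the data were seen. The fit was tested on simulated data with 200 changed genes. Lengths, coordinates and exon overlaps are from GENCODE v29 and promoters from RefSeq. Named members are those called on knockdown by either tool, the 6 with the smallest p in each knockdown comparison, and the 4 called members with the largest rise and the 4 with the largest fall between fractions. Others are named for a role, a call that rests on 1 library, or a value with the length trend removed. Members and lists were chosen with earlier results of these data known.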

Additional observations from a re-analysis of the deposited data

How the results depend on the processing

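Of the knockdown results, 1 member was called in total RNA, in place of 0, with no low-count filter, with DESeq2 and with the compared libraries alone (SLC16A3, adjusted p = 0.00124, 0.00141 and 0.0469). In polysomal RNA 1 member, in place of 0, was called with no low-count filter (EPAS1, adjusted p = 0.0442). Leaving out each library gave 0 members in every knockdown comparison, 20 to 27 polysomal against total in knockdown cells (27 with all) and 28 to 33 in scramble cells (32 with all). Over all tested genes, the deviations of samples with the same replicate number had correlations of −0.0921 to 0.0264. With 1 replicate gap per group, this cannot settle whether same-numbered samples were paired. Among the members, polysome gaps had the same sign in both hairpin groups for 27 of 37, with no share over all genes computed beside it. The replicate block gave 0 members in each knockdown comparison, 26 (16 higher) between fractions in knockdown cells and 32 (22 higher) in scramble cells.

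Under library totals alone, polysomal over total RNA reversed in knockdown cells for SLC2A1 (−0.38), SLC16A3 (−0.69), PFKP (−0.97), PFKL (−0.94), ENO2 (−0.94), PKM (−0.56), PFKFB4 (−0.23), NDRG1 (−0.95) and KDM3A (−0.95), and in scramble cells for EIF4G2 (−0.85), SLC2A1 (−0.0485), PFKP (−0.46), PFKL (−0.67), ENO2 (−0.48), PKM (−0.37) and PFKFB4 (−0.0817). This setting moves all genes down by its own construction. With the length trend removed, values reversed in knockdown cells for EIF4G2 (0.58), SLC16A1 (0.64), EPAS1 (0.37), ARNT (0.23) and EGLN1 (0.43), and in scramble cells for SLC16A1 (0.83), EGLN1 (0.0531), NDRG1 (0.57) and KDM3A (0.71). With 2 libraries per group, leaving 1 out leaves a lone library assumed to vary like the other groups. EGLN3 and CA9 are limited by counts of 35 or fewer per group.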

Other observations

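The gap between polysome replicates had the same sign in knockdown and scramble cells for 27 of the 37 members, and the gap between total replicates for 18 of 37. The share of same signs over all tested genes was not computed, so these counts cannot be read as particular to the members. The 3 named here were chosen after their values were seen. PGK1 was higher in replicate 1 than replicate 2 by log2 0.88 in knockdown polysome and 0.80 in scramble polysome libraries, and ALDOA by 0.60 and 0.59. LDHB was lower in replicate 1, by −0.79 in knockdown and −0.76 in scramble polysome libraries. In total RNA these gaps were 0.22, −0.22 and 0.55 for PGK1, ALDOA and LDHB in knockdown cells, and 0.01, −0.0031 and 0.06 in scramble cells. Over all tested genes the deviations of same-numbered polysome libraries had a correlation of 0.0177. The source of the gaps was not tested.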
